A study of Homo sapiens with 2 samples.

Results

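The genes described here encode p97, adaptors of p97, and proteins of the endoplasmic reticulum (ER) route by which the transcription factor NRF1 (NFE2L1) is degraded or processed. They were taken as a list of 9 genes by name, of 20162 protein-coding genes in the annotation, namely VCP, NPLOC4, UFD1, NSFL1C, FAF2, DDI2, NGLY1, SYVN1 and SEL1L. For each gene, every NRF1 peak with its centre within 20 kb of a transcription start site (TSS) of the gene was collected. The centre is the midpoint of the peak. The deposited peak list gives no summit, so distances from the centre do not show where in a peak NRF1 bound.

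NRF1 was immunoprecipitated with a rabbit polyclonal antibody to mouse NRF1 from HCT116 cells, a human colorectal carcinoma line, after 16 h in 1 µM of the proteasome inhibitor MG132, and the DNA was sequenced (ChIP-seq). An input sample of HCT116 cells with the same treatment belongs to the series and was not analysed here. Both samples came from MG132-treated cells, so that binding with and without the inhibitor was not compared, and a peak list carries no expression values with which the cell line could be checked. With 1 ChIP library there is no replicate error, the read depth is unknown, and no difference between peaks was tested.

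NRF1 is made as a glycoprotein of the ER membrane and is normally removed by ER-associated degradation (ERAD), in which the ubiquitin ligase HRD1 (SYVN1) and its partner SEL1L mark proteins and the ATPase p97 (VCP) pulls them into the cytosol. When the proteasome is blocked, the extracted NRF1 loses its N-glycans to the enzyme NGLY1, is cleaved by the protease DDI2 and enters the nucleus, where it binds antioxidant response elements (AREs) with small MAF proteins. The question for these genes is whether NRF1 in turn bound near the genes of p97, its adaptors and the NRF1 processing route. NSFL1C is on the list as a p97 adaptor, not as a gene known here to process NRF1.

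NRF1 peaks lay within 20 kb of a TSS at 7 of the 9 genes (77.8%), against 18.7% of all protein-coding genes. The 95% Wilson interval, 45.3 to 93.7%, treats the genes as a random draw, which a list picked by name is not. The genes were chosen with earlier results of these data known, so these shares are descriptions and were not tested. At 6 of the 9 the centre of a peak lay within 2 kb of a TSS, against 6.03% of all protein-coding genes, and such peaks are called promoter peaks here. The 6 genes were VCP, NPLOC4, UFD1, NSFL1C, FAF2 and NGLY1, while SYVN1 had a peak 16270 bp upstream and DDI2 and SEL1L had none. NGLY1 counts through a start upstream of its canonical start, from which the peak centre stood at −6467 bp. The strength of a peak is given as the score of the authors' peak caller, that is −log10 of its p-value multiplied by 10, which ran from 50 to 3100 over the 5683 deposited peaks, with a median of 91.86. The genes spread widely by this score, with NSFL1C, NPLOC4 and VCP among the highest-scoring peaks of the genome and FAF2 and NGLY1 near the median.

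The peaks are described here by the AREs in their sequence. A core and a full form were searched on both strands. The core form is TGACNNNGC or TGAGNNNGC, and the full form, TGACTCAGC or TGAGTCAGC, is the core form with the spacer TCA. The full form contains the TRE, the AP-1 site TGACTCA or TGAGTCA. None of the 6 promoter peaks held the full form, against 43.2% of all peaks within 2 kb of a protein-coding TSS. Both peaks outside promoters, at FAF2 and SYVN1, held it, against 65.8% of all other peaks. For each peak the core site with the fewest substitutions from the full form is shown on hg19 with 10 bases on each side, with the site in capitals and 5′ to 3′ on the strand that reads TGA. At NSFL1C and NGLY1, where both core sites differed at 2 bases, the site nearer to the peak centre is shown.
NSFL1C, promoter peak, chr20:1447270-1447278, plus strand: agagcggggaTGACTGTGCgcttcggccg
NPLOC4, promoter peak, chr17:79603895-79603903, minus strand: gacgccgggaTGAGGCAGCagatttgccg
VCP, promoter peak, chr9:35072081-35072089, plus strand: ggggcctgcaTGACACAGCacgatccggc
UFD1, promoter peak, chr22:19466501-19466509, plus strand: caggcccgggTGACTCGGCacctccgccg
NGLY1, promoter peak, chr3:25831347-25831355, minus strand: aataacgcgaTGAGGTAGCattttcaccc
FAF2, promoter peak, chr5:175875368-175875376, plus strand: ttccggcgggTGACGGTGCggacgggtca
SYVN1, distal peak, chr11:64918336-64918344, minus strand: ctgttgggaaTGACTCAGCcccgagacac
FAF2, distal peak, chr5:175908889-175908897, minus strand: tgtcaccataTGACTCAGCaaagtccatt

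**Figure D1:**
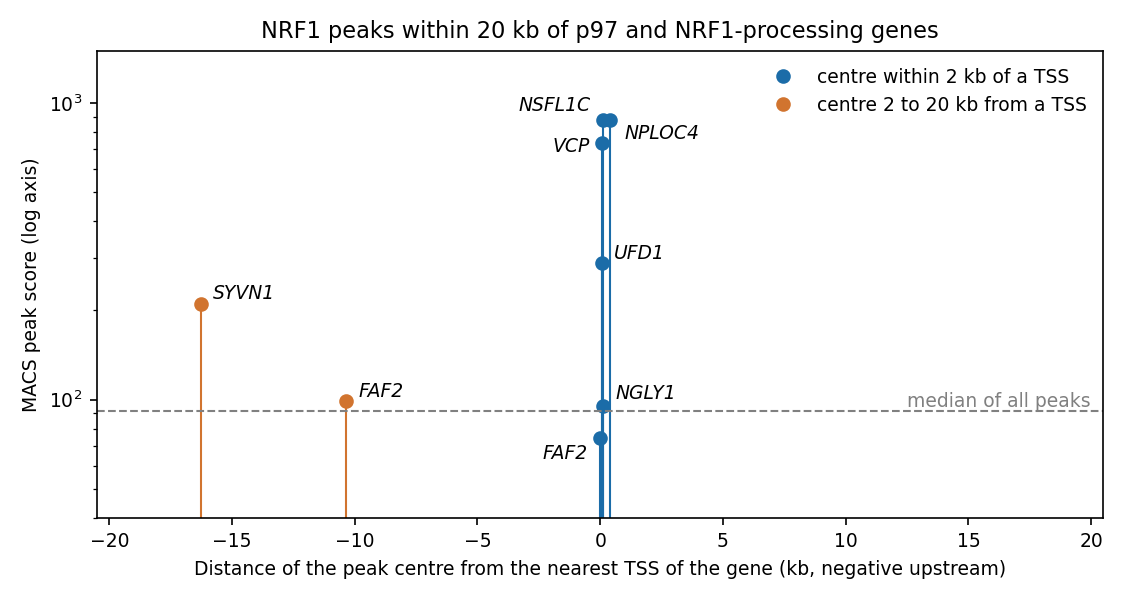
Score of each member peak (vertical, log axis) against the distance of its centre from the nearest TSS of the gene (horizontal, kb, negative upstream), with 1 point per peak and a dashed line at the median of all peaks. The 6 promoter peaks stand within 391 bp of a TSS and run from 74.07 at FAF2 to 877.86 at NSFL1C, and the other 2 peaks lie upstream of SYVN1 and of a TSS of FAF2.

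VCP encodes p97 itself, the ATPase that unfolds ubiquitinated proteins. The gene lies on the minus strand of chromosome 9, at chr9:35053925-35072665 of hg19, and its canonical transcript starts at 35072622. Its single peak, chr9:35071692-35073004, had a score of 730.46, rank 34 of the 5683 peaks. It was 1313 bp wide, against a median of 501 bp. The centre lay in the coding part of exon 1 of the canonical transcript, 274 bp downstream of its start and 91 bp downstream of the nearest annotated TSS, and 14 of the 23 distinct TSSs of VCP fell inside the peak. The peak held 3 core sites. The site nearest to the centre, 20 bp from it, was TGAGTGTGC, and the 1 closest to the full form was TGACACAGC, 263 bp from the centre. VCP also overlaps ENSG00000288699, annotated as protein-coding, whose TSS was 1824 bp from the centre, and binding to the one or the other cannot be told apart.

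NPLOC4 and UFD1 encode the pair of adaptors that dock on p97 and bind the ubiquitin chains of its substrates, and both had a promoter peak. The NPLOC4 peak, chr17:79603060-79604330, had a score of 873.71 (rank 19) and a width of 1271 bp, and its centre lay in intron 1, 443 bp downstream of the canonical start. The UFD1 peak, chr22:19466204-19466901, had a score of 288.37 (rank 462), was 698 bp wide and was centred in intron 1, 164 bp downstream of the canonical start. Partners in the same dimer were thus far apart in the order of the peaks, although without a replicate the size of that gap has no error. Both peaks sit where another gene starts nearby. TSPAN10 has a TSS 502 bp from the centre of the NPLOC4 peak, and CDC45, a replication factor gene, has a TSS 428 bp from that of the UFD1 peak. At both peaks, binding to the one gene or the other cannot be told apart.
The NPLOC4 peak held 3 core sites, none within the central 200 bp of the peak. Its only TRE stood 208 bp from the peak centre, directly before the core site TGACAAGGC. It is shown with the TRE in capitals because no other promoter peak of the 6 held one:
NPLOC4, TRE, chr17:79603484-79603490, plus strand: ctctccttagTGACTCAtgacaaggca
The UFD1 peak held 2 core sites, 47 and 76 bp from its centre, both in exon 1 of a noncoding transcript of the gene. The nearer, TGACTCGGC, differed from the full form by A7G alone, where the base of the full form is given first, then the position counted from the T of TGA as 1, then the base of the site.

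NSFL1C encodes p47, an adaptor that directs p97 to membrane fusion, and FAF2 encodes UBXD8, which recruits p97 to the ER membrane and to lipid droplets. NSFL1C had the highest score of the 9 genes, 877.86 (rank 18), in a peak of 885 bp at chr20:1446903-1447787 that contained 9 of the 11 distinct TSSs of the gene. Its centre was in intron 1, 149 bp downstream of the canonical start, and no protein-coding TSS of another gene lay nearer to it than that of SIRPB2, at 13736 bp. The peak held neither a TRE nor a site within 1 mismatch of the full form. Its 2 core sites were TGACTGTGC, 71 bp from the centre, and TGACGCCGC, 222 bp from it. The central 151 bases of this peak are printed because it is the strongest of the set and lacks both the full ARE and the TRE. They lie at chr20:1447270-1447420 on the plus strand, with the core site in capitals:
NSFL1C, peak centre: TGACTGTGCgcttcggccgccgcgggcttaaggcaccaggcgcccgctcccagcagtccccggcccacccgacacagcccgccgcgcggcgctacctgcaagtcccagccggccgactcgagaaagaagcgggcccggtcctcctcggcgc
FAF2 had 2 peaks. The promoter peak, chr5:175875200-175875532, was centred 20 bp upstream of the canonical start with a score of 74.07 (rank 3728), below the median of all peaks. Its single core site, TGACGGTGC, was 6 bp from the centre and differed from the full form at all 3 spacer bases (T5G,C6G,A7T). The other peak, chr5:175908609-175909134, lay in intron 2, 33485 bp downstream of the canonical start, with a score of 99.03 (rank 2552) and the full form TGACTCAGC 22 bp from its centre. It counts as within 20 kb of a TSS through retained-intron transcripts that start further downstream, and from the nearest of these starts the centre stood at −10369 bp.

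**Figure D2:**
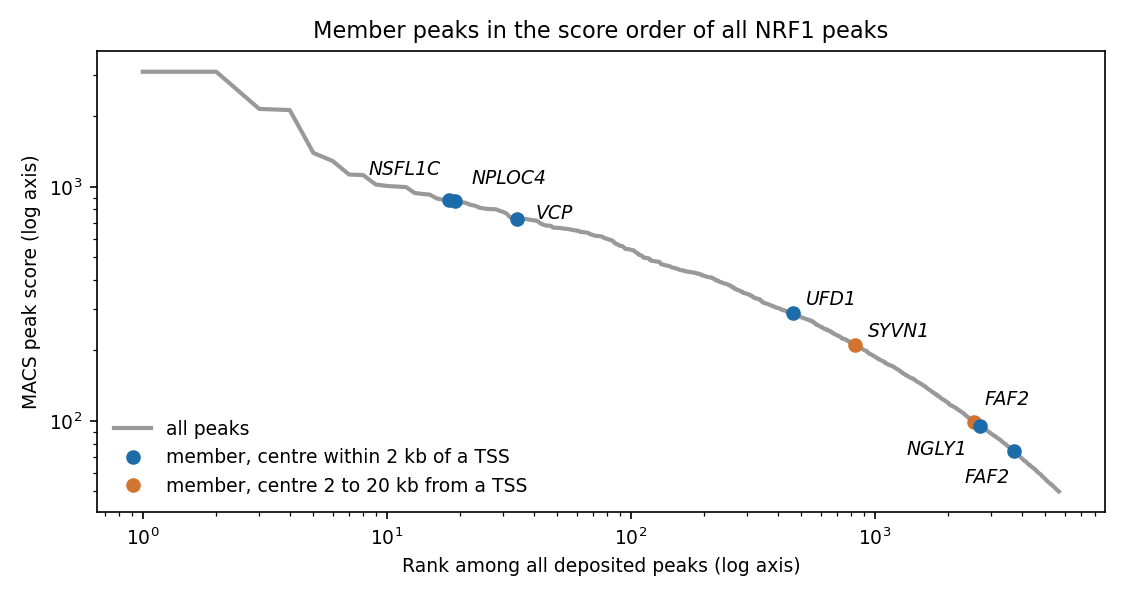
Score of all 5683 peaks in falling order (grey line, both axes logarithmic), with the 8 member peaks as points coloured by whether the centre is within 2 kb of a TSS. NSFL1C, NPLOC4 and VCP stand at ranks 18, 19 and 34, UFD1 and SYVN1 at 462 and 833, and the peaks of FAF2 and NGLY1 between 2552 and 3728.

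NGLY1, the N-glycanase that removes the glycans of NRF1, and DDI2, the aspartic protease that cleaves NRF1, differed in whether a peak was found. The NGLY1 peak, chr3:25831146-25831657, had a score of 95.47 (rank 2691) and was centred in the untranslated part of exon 1 of the transcript with the nearest TSS, 129 bp downstream of it. The annotation takes a start further downstream as canonical, from which the centre stood at −6467 bp. OXSM, which encodes an enzyme of mitochondrial fatty acid synthesis, has a TSS 180 bp from the centre. The annotated bodies of both genes cover the centre. Binding to NGLY1 or to OXSM cannot be told apart here. The peak held 2 core sites, TGAGGTAGC and TGACGCGGC, 50 and 73 bp from the centre.
DDI2, at chr1:15943953-15995539, had no peak within 50 kb of any of its 6 TSSs. The nearest peak centre was 242 kb away, with a score of 217.17, and 27.9% of protein-coding genes were farther from their nearest peak.

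SYVN1 encodes the ligase HRD1 and SEL1L the subunit that stabilises it, and neither had a promoter peak. The SYVN1 peak, chr11:64918037-64918509, had a score of 211.01 (rank 833), and its centre fell in no annotated gene. The centre was 16270 bp upstream of the nearest SYVN1 TSS, and 2 protein-coding genes, SYVN1 and SPDYC, had a TSS within 20 kb of it, with that of SPDYC at 19431 bp. The nearest TSS of all was that of RNU2-23P, annotated as a small nuclear RNA, at 3218 bp. The peak held 3 core sites, of which TGACTCAGC, 67 bp from the centre, was the full form. The nearest peak to SEL1L, at chr14:81937891-82000197, was 181 kb from its closest TSS, with a score of 80.88, and 35.6% of protein-coding genes were farther from theirs. Over all protein-coding genes the median distance from the nearest peak was 105.0 kb.

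**Figure D3:**
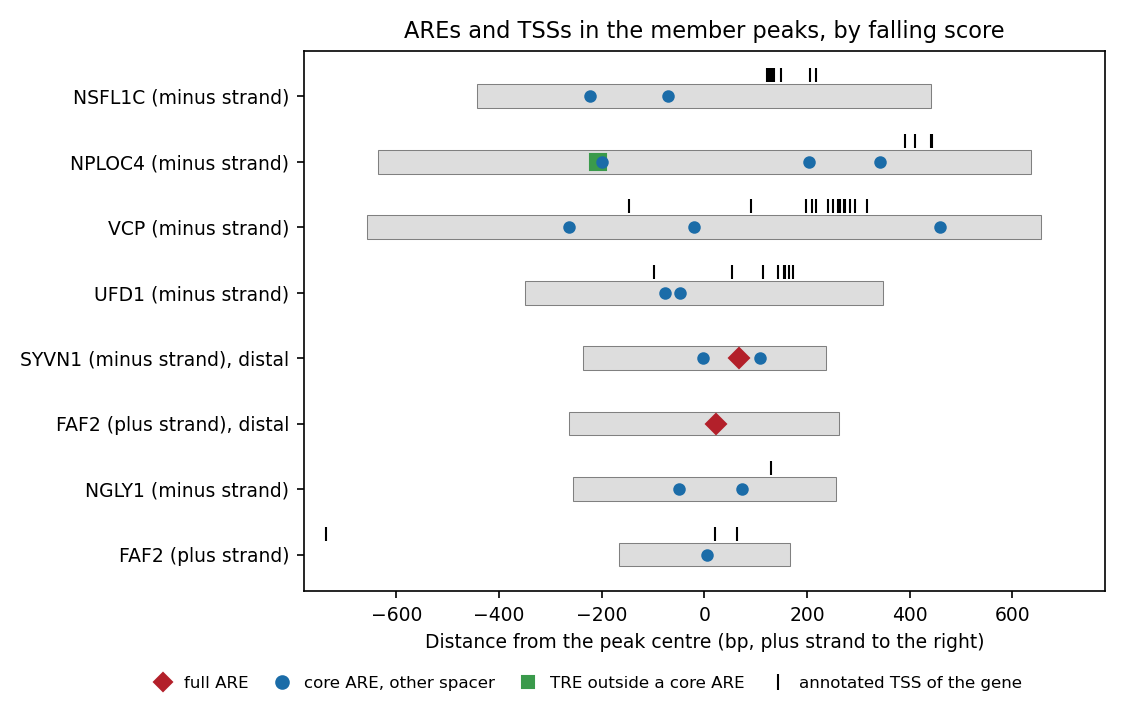
The 8 member peaks drawn to scale as grey bars around their centres (bp, plus strand to the right, ordered by falling score), with core AREs as circles, full AREs as diamonds, the TRE outside a core ARE as a square, and annotated TSSs of the gene as ticks above. Diamonds appear only in the distal peaks of SYVN1 and FAF2, and the promoter peaks hold 1 to 3 circles each.

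The 6 promoter peaks held 13 core sites in all. Of these, 3 differed from the full form at 1 spacer base, 7 at 2 and 3 at all 3, and 0 matched it. Each of the 6 promoter peaks and both distal peaks held a core site, against 87.4% of all peaks, 85.2% of the 1122 peaks within 2 kb of a protein-coding TSS and 87.9% of the others. Core sites were also common outside peaks. They were found in 32.8% of flanks, which are stretches of the same length that start 2 kb from either edge of a peak, and in 74.2% of the 31 flanks of peaks within 10% of the width of the VCP peak. For NPLOC4 the share in flanks of such peaks was 68.3%, for NSFL1C 54.9%, for UFD1 44.0%, for NGLY1 31.2% and for FAF2 21.1%.
The full form was rarer outside peaks, in 1.37% of flanks, and was present in 61.3% of all peaks. It was found in 43.2% of the peaks within 2 kb of a protein-coding TSS and in 65.8% of the other peaks, against 0 of the 6 promoter peaks and both distal peaks of the genes described here. Peaks of like width were taken from all peaks, near a TSS or not. The full form was in 50.0% of the 16 peaks as wide as the VCP peak. It was in 61.9% of the 21 like the NPLOC4 peak and 69.1% of the 175 like the NSFL1C peak. With 1 mismatch to the full form allowed at any position, VCP, NPLOC4 and UFD1 had a site, that is 3 of the 6 promoter peaks, against 78.6% of peaks near protein-coding TSSs, 91.6% of the others and 89.1% of all. Such sites were found in 31.5% of flanks. The TRE was found in 1 of the 6, NPLOC4, against 56.3% of peaks near protein-coding TSSs, 79.7% of the others, 75.0% of all and 8.6% of flanks. High scores without the full form were not limited to these genes. Of the 42 peaks with a score above 700, 21 were promoter peaks, and the 12 of the 42 without a full ARE were all among these 21, NSFL1C, NPLOC4 and VCP included.

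The promoter peaks also had a high ratio of observed to expected CpG. Their GC content was 71.8% at NSFL1C, 68.3% at VCP, 67.9% at FAF2, 62.7% at NPLOC4, 62.6% at UFD1 and 52.5% at NGLY1. All but that of NGLY1 lay above the median of 54.6% for peaks near protein-coding TSSs. The ratio of observed to expected CpG, which is high in CpG islands, ran from 0.746 at NPLOC4 to 1.19 at NGLY1, against a median of 0.405 for such peaks. The distal peaks of FAF2 and SYVN1 had CpG ratios of 0.158 and 0.278, nearer to the median of all peaks, 0.212. Their GC content was 43.9% and 55.2%, against a median of 45.3% for all peaks. That of SYVN1 was thus also above the median of 54.6% for peaks near protein-coding TSSs. The part of base composition in the absence of the full form from the promoter peaks was not tested.

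Other genes of the same pathways were counted with the same windows. Of 22 other p97 cofactors, 6 had a promoter peak (27.3%, 95% interval 13.2 to 48.2%), against 6.03% of all protein-coding genes. They were UBXN8, PLAA, FAF1, UBXN4, ASPSCR1 and UBE4B. None of the best promoter peaks of the 6 held the full form, against 40.3% over all protein-coding genes with a promoter peak. PLAA, which binds ubiquitin on p97, had a score of 433.0 (rank 175), and FAF1, a relative of FAF2, a score of 268.22 (rank 547). UBXN4, an ER-membrane adaptor of p97, had a score of 176.74, ASPSCR1, which takes p97 hexamers apart, 123.77, and UBE4B, a ubiquitin chain elongation factor, 75.81. The highest of the list, 541.71, belonged to a peak at −1180 bp from UBXN8 that was nearer to a TSS of GSR, the glutathione reductase gene. Within 20 kb, 8 of the 22 had a peak (36.4%, against 18.7% of all protein-coding genes).
Of 23 other ERAD genes, 0 had a promoter peak (95% interval 0 to 14.3%), against 6.03% of all protein-coding genes. At that share few of 23 genes would have one. Within 20 kb, 2 had a peak (8.7%, against 18.7% of all protein-coding genes). These were ERLEC1, a lectin that hands glycoproteins to HRD1, with a score of 67.65 at −16523 bp in a peak nearer to ASB3, and EDEM2, a mannosidase that trims them, with a score of 125.72 at 13442 bp. Each held a full ARE, as did the distal peaks of SYVN1 and FAF2. So did 65.8% of all peaks farther than 2 kb from a protein-coding TSS. No list was tested against another.

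**Figure D4:**
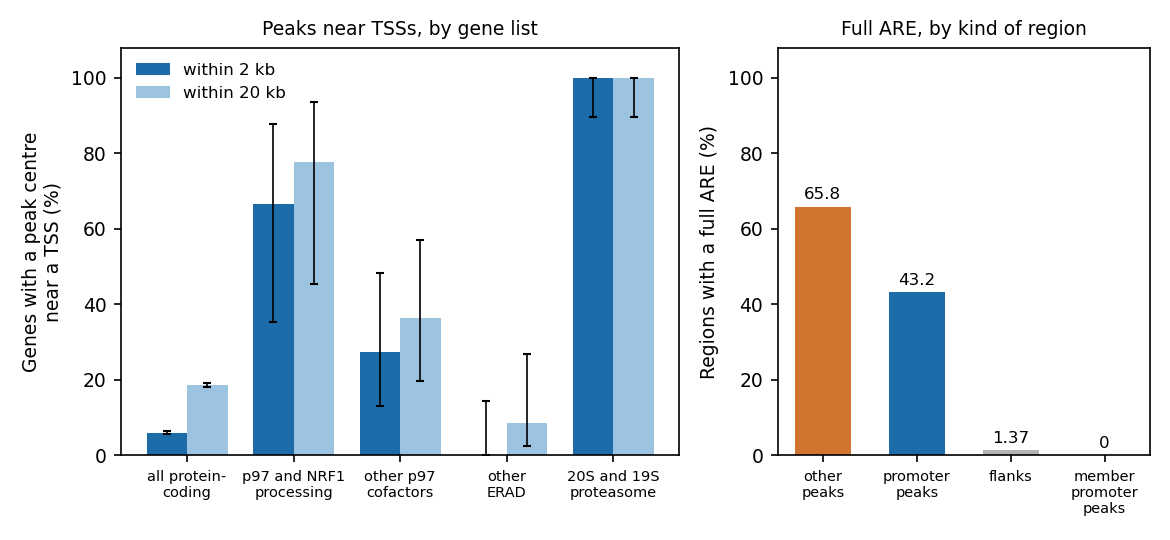
Left, share of genes with a peak centre within 2 kb (dark) or 20 kb (light) of a TSS, for all protein-coding genes and 4 lists, with 95% Wilson intervals. The intervals treat each list as a random draw of genes and serve as no test. The lists were chosen with earlier results known. Right, share of regions with a full ARE among other peaks (65.8%), promoter peaks (43.2%), flanks (1.37%) and the 6 member promoter peaks (0%).

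Proteasome subunit genes, the known targets of NRF1, give a scale for these scores. All 33 genes of the 20S and 19S particles had a promoter peak, with best scores from 90.61 to 1128.13 and a median of 311.38. The largest were those of PSMD14, PSMD1 and PSMD11, at 1128.13, 925.88 and 880.07. These 3 were the only proteasome genes with a higher score than NSFL1C and NPLOC4, and 4 scored above VCP. UFD1 was exceeded by 22 of the 33, NGLY1 by 32 and FAF2 by all 33. Among the 1215 protein-coding genes with a promoter peak, NSFL1C stood at position 8, NPLOC4 at 9, VCP at 20, UFD1 at 173, NGLY1 at 641 and FAF2 at 829. The full form was found in the best promoter peak of 7 of the 33 proteasome genes (21.2%), against 40.3% of the protein-coding genes with a promoter peak.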

How the data were processed

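NRF1 ChIP-seq was analysed for 1 sample of MG132-treated HCT116 cells. The authors sequenced single-end reads, mapped them to hg19 with Bowtie2 2.2.6 and called peaks with MACS 1.4.2. The deposited list gives the position and score of each peak, in which −log10 of the p-value is multiplied by 10, and neither the control library nor the MACS settings are given in the sources used here. Starts were converted to browser coordinates. TSSs were those of all transcripts in GENCODE v44 mapped to GRCh37, the same assembly. AREs were searched on both strands in 5673 peaks, leaving out 5 on contigs and 5 with undetermined bases, and in flanks of equal length. Members and lists were chosen with earlier results of these data known, so counts are descriptions and no test was run. The genes named were the members, the 3 genes of each list with the highest promoter peak score, every p97 cofactor or ERAD gene with a promoter peak, and genes with a TSS nearer to a member peak than that of the member. ERLEC1, EDEM2, GSR, ASB3 and the other neighbouring genes were named after their values were seen. The paper's array values and site tables were not used. Motif search and distances were tested on simulated data. Python 3.11.15, pandas 2.3.3, scipy 1.17.1, pysam 0.24.0 and matplotlib 3.10.9 were used.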

Additional observations from a re-analysis of the deposited data

How the results depend on the processing

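Of 24 alternative counts, 20 stayed within 1.5-fold of the values given. Members with a peak within 20 kb ranged from 5, with a score of at least 100, to 7, and members with a promoter peak from 4 to 6. With that score the number of member peaks fell from 8 to 5, and members whose best peak holds a full ARE fell from 2 to 1. The latter count was 0 with best peaks taken within 2 kb of a TSS and 5 with 1 mismatch allowed, both chosen after the data were seen. With TSSs of protein-coding transcripts only, the peak centres lay at −146 bp for VCP, −98 bp for UFD1 and 128 bp for NSFL1C, and the best FAF2 peak at 33485 bp instead of −10369 bp. That distal FAF2 peak, which holds a full ARE, then fell outside the 20 kb window, and 7 member peaks remained. Among peaks within 2 kb of a protein-coding TSS the ranks were 8 for NSFL1C, 9 for NPLOC4, 18 for VCP, 156 for UFD1 and 578 for NGLY1. No paired analysis was possible because there is 1 ChIP library. The read depth is not known, and the peaks of FAF2 and NGLY1 are those that a minimum score of 100 removes.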
